A study of Mus musculus with 4 samples.

Results

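A connected group of 70 low-depth spots in the liver section labelled STAM20w was described, the Ankrd1 and Dcdc2a region. The data are spatial transcriptomes made with the Visium platform, in which a frozen tissue slice lies on a grid of barcoded capture spots and each spot returns counts of unique molecular identifiers (UMIs, 1 per captured RNA molecule) for the few cells above it. The series holds 4 mouse liver sections, with 1 section per group: STAM20w and STAM16w from the STAM mouse, a model with diabetes and steatohepatitis that develops liver tumours, and DEN22w and DEN30w from mice given diethylnitrosamine (DEN) and carbon tetrachloride, which cause DNA damage and fibrosis. The number in each label (16, 20, 22 or 30) is read here as weeks, without a stated starting point, and strain, sex, agents' doses and whether sections came from separate animals are not given in the labels. A tumour-free control liver is not among the samples analysed here, so every comparison is between spots of diseased liver.

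The 70 members were chosen by measured values. Among the 2833 STAM20w spots with at least 500 UMIs and 250 genes, each spot was scored by the UMIs of Ankrd1, Dcdc2a, Fgfbp1, Lce6a and Myo5c per 10000 UMIs, averaged over the spot and the kept spots that touch it, and the 70 highest were taken. They are 2.47% of the section's kept spots, and the 4 sections together hold 10627 kept spots. Each member was paired with the other kept spot nearest to it in UMI total. The score was 15.5 at rank 1, 7.89 at rank 35, 4.39 at rank 70, the last member, and 4.25 at rank 71, the first spot left out, while the median of the 2763 other kept spots was 0. Levels of the 5 scoring genes are therefore a description of the choice and not a result.

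Background helps in reading the genes that follow. Bile duct cells (cholangiocytes) line the ducts of the liver and carry keratins 7 and 19, claudins, Epcam, the transcription factor Sox9 and osteopontin, whereas hepatocytes make most plasma proteins, among them albumin, apolipoproteins and alpha-1-antitrypsins. Ductular cells multiply at the portal tract in many chronic liver diseases, in an arrangement called a ductular reaction, and liver tumours and injured hepatocytes can also carry duct markers. Ankrd1, an ankyrin repeat protein that acts in muscle and in stretched or injured tissue, is a known target of the Hippo pathway's coactivators YAP and TAZ, which bind DNA through TEAD factors. Dcdc2a, a doublecortin-domain protein of microtubules and cilia, is expressed by bile duct cells. Nupr1 is a small chromatin-associated stress protein whose transcription is raised by the stress factor ATF4.

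The scoring genes were thinly sampled. Ankrd1 (chr19:36111965-36119844 in GRCm38, the mm10 build) had 79 UMIs in the 70 region spots and 3 in the 70 matched spots, of 186 in the section, and 44 region spots held at least 1. Dcdc2a (chr13:25055273-25210706) had 43 UMIs in the region and 0 in matched spots. Fgfbp1, a secreted carrier of fibroblast growth factors, had 18 against 1, Lce6a, a late cornified envelope gene, 19 against 1, and Myo5c, an unconventional myosin of secretory epithelia, 19 against 0. The region thus held 178 of the 484 UMIs of these genes in the section. Mycn, the gene that the series is about, had 3 UMIs in the region, 0 in matched spots and 10 in all kept spots of the section, too few for a fold.

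The promoter of Ankrd1 is shown because the score leads with that gene, and that of Nupr1 because it led the genes that the score did not use. Both windows run from 250 bases before to 50 bases after the annotated start, on the gene's own strand (RefSeq, build GRCm38.p6). Capitals mark letters found by a search on both strands for GGAATG, which TEAD factors bind, TGATGNAA, a composite element of the C/EBP and ATF factors, and CACGTG, an E-box bound by the MYC and MAX family. The Ankrd1 window lies at chr19:36119795-36120094 on the minus strand, and the Nupr1 window at chr7:126625421-126625720 on the minus strand.
Ankrd1: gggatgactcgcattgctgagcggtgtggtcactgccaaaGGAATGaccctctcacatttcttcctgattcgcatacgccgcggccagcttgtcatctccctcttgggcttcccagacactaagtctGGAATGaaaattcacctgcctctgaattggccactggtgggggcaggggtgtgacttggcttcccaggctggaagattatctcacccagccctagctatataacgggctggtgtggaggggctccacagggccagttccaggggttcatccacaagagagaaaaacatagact
Nupr1: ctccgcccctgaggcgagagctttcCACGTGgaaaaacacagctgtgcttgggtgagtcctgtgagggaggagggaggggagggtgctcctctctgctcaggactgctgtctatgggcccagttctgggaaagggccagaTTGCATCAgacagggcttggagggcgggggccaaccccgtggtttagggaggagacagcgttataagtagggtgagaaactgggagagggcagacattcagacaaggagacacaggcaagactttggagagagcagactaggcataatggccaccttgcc
The Ankrd1 window holds GGAATG 2 times, on one strand or the other, and neither of the other motifs. The Nupr1 window holds 1 TGATGNAA, 1 CACGTG and no GGAATG. These motifs do not overlap in either window. Over 32851 promoter windows of 27025 genes, GGAATG was in 14.7%, TGATGNAA in 3.97% and CACGTG in 7.15%. Of the 5 scoring genes, all in the promoter table, Ankrd1 and Lce6a held GGAATG. Of the 15 genes highest in the region, described next, 8 were in the table, 1 of these (Ahnak) held GGAATG and 1 (Nupr1) held the other two. Of the 11 matched among the 15 lowest, Mup11 and Mup17 held GGAATG. A match of letters is not a bound site.

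The region lay at the right edge of the capture grid. Its spots formed 1 connected group at array rows 41 to 59 and columns 116 to 127, and 127 is the last column of the slide. Of the contacts between region spots and kept spots, 84.8% were with other region spots, which the averaging of the score over touching spots favours. All 6 touching positions held kept spots for 41 region spots and for 51 matched spots, and 15 region spots were in the last 2 columns. Region spots held 553 to 18229 UMIs (median 3058.5), matched spots 552 to 18232 (median 3060.5), and all kept spots of the section a median of 12761. Only 13.3% of kept spots had fewer UMIs than the region's median. The sums compared below were 257943 UMIs in the region and 257945 in matched spots, and the 4 sections held 20700642 to 40008457 UMIs in kept spots.

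**Figure D1:**
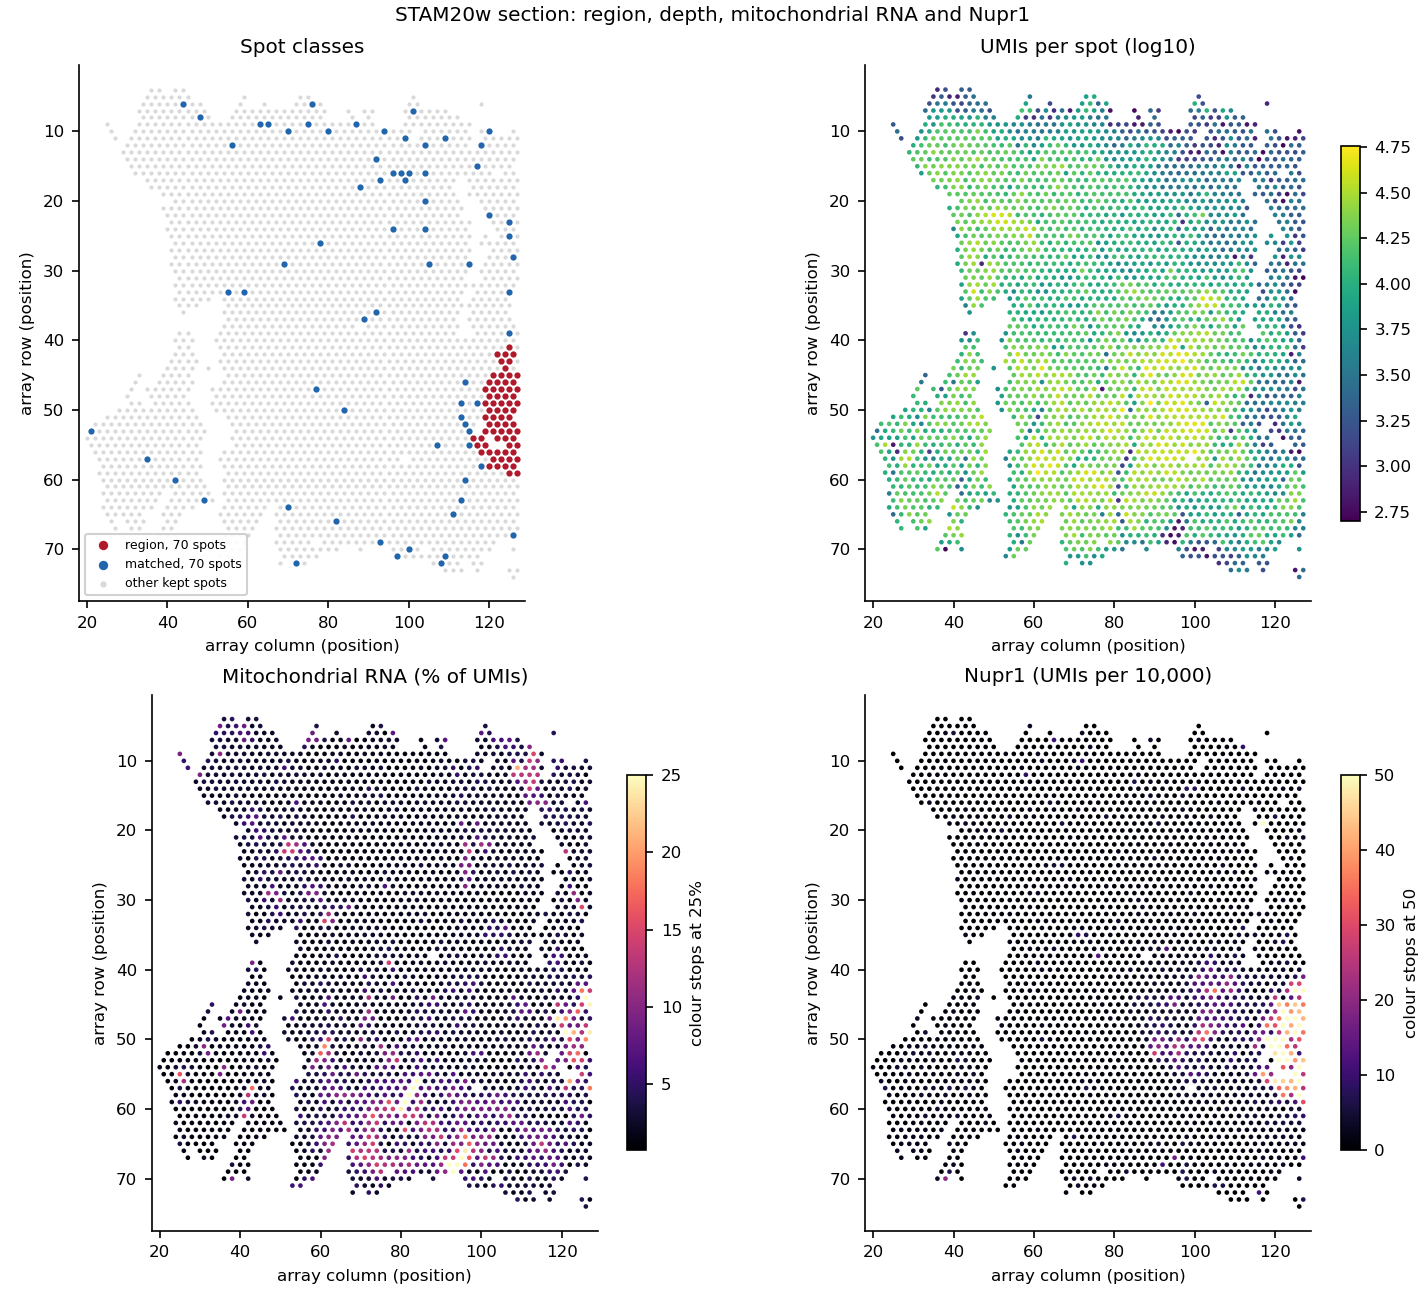
Maps of the STAM20w section by array column and row (positions on the grid). The first panel marks the 70 region spots and the 70 matched spots, and the others colour every kept spot by UMIs (log10), by mitochondrial RNA (% of UMIs) and by Nupr1 (UMIs per 10,000). The region sits at the right edge, where Nupr1 is high and UMI totals are low.

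Mitochondrial RNA went along with the region. Mitochondrially encoded RNA made 9.52% of UMIs in the region (exact binomial 95% interval 9.41 to 9.63%, for counting error only) and 3.73% in matched spots (3.66 to 3.80%), a difference of 5.79 percentage points. By spot the share ran between 0.787 and 26.6% in the region (median 7.83%) and between 1.08 and 30.6% in matched spots (median 2.53%), so the classes overlapped, although 64 of 70 region spots were above the matched median. In the 43 region spots whose touching kept spots all belong to the region the share was 12.2%, and in the other 27 it was 6.69%. A high mitochondrial share is used as a sign of damaged cells or leaked cytoplasmic RNA, and its part in the gene differences below was not tested. Genes detected per spot, after each spot was thinned to 500 UMIs, had a median of 370.5 in the region and 360.5 in matched spots, and the unthinned medians were 1464.5 and 1456.

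Genes that the score did not use separated the region from matched spots of equal depth in both directions. Of 1516 genes with at least 50 UMIs in both classes together, 75 (4.95%) were at least 2-fold higher in the region and 90 (5.94%) at least 2-fold lower, by CPM (a gene's UMIs per 1000000 UMIs summed over the class). The median log2 ratio over the 1516 genes was -0.11. With TMM scaling, which moved every log2 ratio by -0.11, the split was 51 higher and 135 lower, and with mitochondrial genes left out of the total it was 90 higher and 72 lower. With 1 section there is no replicate, so no test was made between these spots: the intervals given are exact 95% intervals for counting error of the UMIs, and the genes named first have, by the way they were ranked, ratios on the high side. Fewer cells of a type and less RNA per cell cannot be told apart in such sums.

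**Figure D2:**
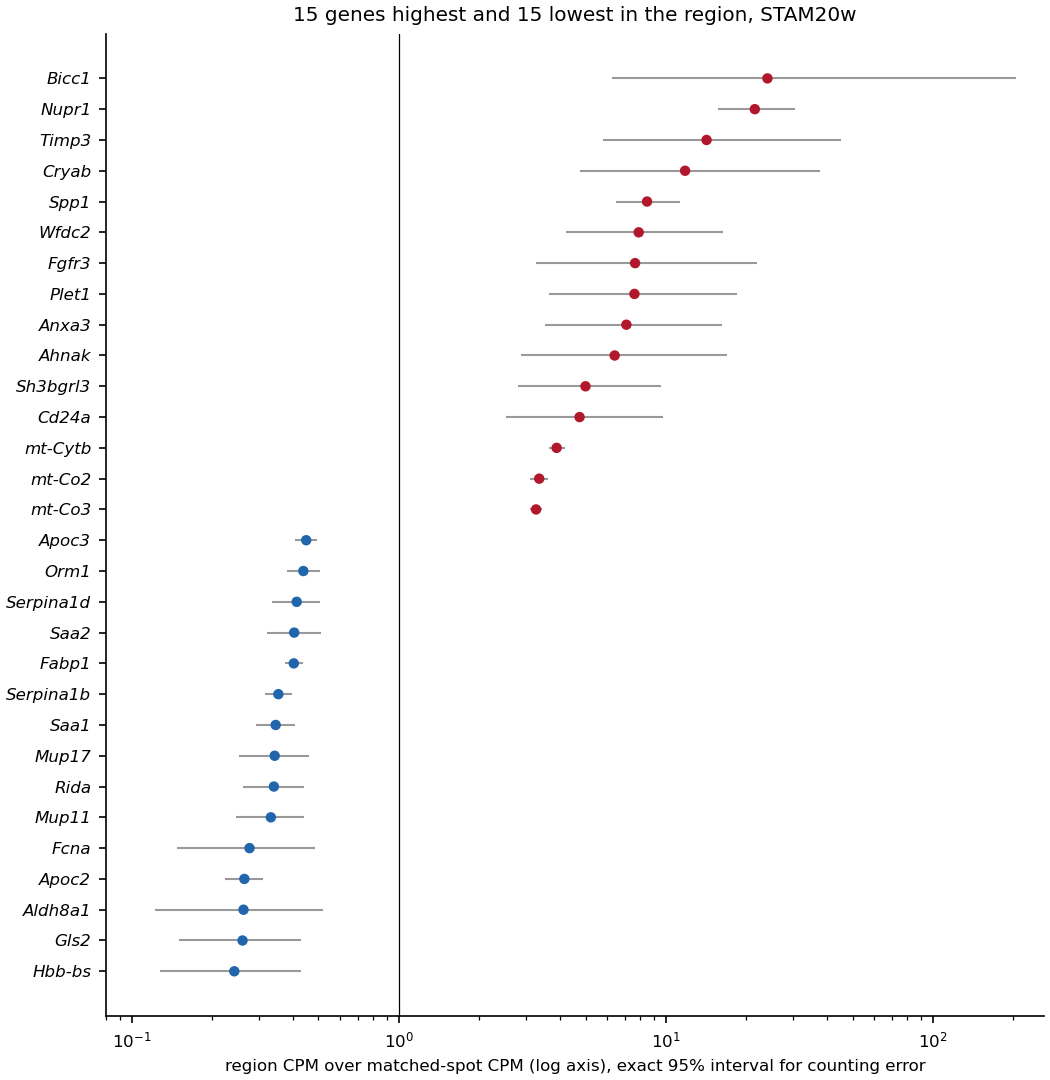
Ratio of region CPM to matched-spot CPM (log axis) for the 15 genes highest and the 15 lowest in the region, with exact 95% intervals for counting error. Nupr1 stands at 21.5-fold with the highest lower bound, and Apoc2 at 0.264 is the lowest by the same ranking.

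Nupr1 (chr7:126623246-126625470) led the higher genes. Its level per spot was between 0 and 107 UMIs per 10000 in the region (median 37.3) and between 0 and 15.9 in matched spots (median 0). Of the 70 region spots, 60 were above the highest matched spot, and 69 held at least 1 UMI against 19 matched spots. The sums were 861 and 40 UMIs, or 3338 CPM in the region (3119 to 3569) and 155 CPM in matched spots (111 to 211), a ratio of 21.5 (15.7 to 30.3). Its log2 ratio of 4.43 ran between 3.50, with the score of the spot alone, and 4.99 over the alternative settings, a wider range than the counting interval. The region, with 0.645% of the section's UMIs, held 10.0% of its 8613 Nupr1 UMIs. In spots under the minimum of UMIs or genes, which the rule leaves out, Nupr1 was at 283 CPM (5 of 17657 UMIs, 91.9 to 661).

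Spp1 (chr5:104435111-104441053) encodes osteopontin, a secreted phosphoprotein of bile duct cells and macrophages. It ran between 0 and 82.1 UMIs per 10000 in region spots (median 19.4) and between 0 and 43.7 in matched spots (median 0), and 65 region spots held it against 20 matched spots. In all it had 527 UMIs in the region and 62 in matched spots, a ratio of 8.50 (6.52 to 11.2). The classes overlapped for Spp1, with 6 of 70 region spots above the highest matched spot.

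The other nuclear genes of the 15 highest were counted at lower depth. Bicc1, an RNA-binding protein of duct and kidney tubule epithelium, had 48 UMIs in the region against 2, a ratio of 24.0 with an interval of 6.29 to 204. Timp3, an inhibitor of matrix metalloproteases, had 71 UMIs against 5 (14.2-fold, 5.81 to 45.1). Cryab, a small heat shock protein, had 59 against 5 (11.8-fold, 4.78 to 37.7). These 3 genes were present in 30, 39 and 36 region spots and in 2, 5 and 4 matched spots. Wfdc2, a secreted protease-inhibitor-like protein of ducts and other epithelia, had 87 against 11 (7.91-fold), and Plet1, a surface protein of progenitor epithelia, 61 against 8 (7.63-fold). Anxa3, an annexin, had 64 against 9 (7.11-fold), and Fgfr3, a fibroblast growth factor receptor, 46 against 6 (7.67-fold). Ahnak, a large scaffold protein of the cell cortex, had 45 against 7 (6.43-fold), Sh3bgrl3, a small thioredoxin-fold protein, 70 against 14 (interval of the ratio 2.79 to 9.61), and Cd24a, a surface glycoprotein of progenitors and tumour cells, 57 against 12 (4.75-fold). Each of these genes had more UMIs in the region in both its upper and its lower rows of spots. Both parts entered the ranking that picked the genes, so this is a description and not separate support.

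Bile duct genes were higher across their list. All 19 genes of the list of bile duct markers had more UMIs in the region than in matched spots, with 1426 against 538 UMIs in all, beside 8116 of 13091 genes detected in either class that had more UMIs in the region. In both classes together 5 members reached 50 UMIs, but Bicc1 and Anxa4 did so through region UMIs, so a count of 2-fold genes among them says little. Anxa4, an annexin, had 43 UMIs against 14, and its log2 ratio ran between 0.70 and 1.90 over the alternative settings. Keratins 8 and 18, which hepatocytes also make, differed least: Krt8 had 280 UMIs against 238 and Krt18 308 against 202.

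Other duct markers were named after their values were seen. Krt7 had 29 UMIs in the region and 1 in matched spots, and Krt19 20 and 3. Among junction and surface proteins, Cldn4 had 30 and 0 (exact 95% lower bound of the ratio 7.64), Cldn7 had 32 and 3, Epcam 22 and 1, and Tspan8 23 and 1. The duct transcription factor Sox9 had 10 and 0. The ratio of the summed list was 2.65 (2.40 to 2.93) for all 19 genes and 1.89 (1.69 to 2.12) without Spp1, and it was 8.64 (6.11 to 12.6), with 311 UMIs against 36, when the abundant Krt8 and Krt18 were left out too, a choice made after their values were seen. Per spot, the list without Spp1 ran between 0 and 77.0 UMIs per 10000 in the region (median 35.6) and between 0 and 50.9 in matched spots (median 15.1). Of the receptor and the channel by which mature ducts secrete fluid, Sctr had 10 UMIs in the region against 1 (ratio 10.0, 1.42 to 434). Cftr had 1 against 0, too few to compare.

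**Figure D3:**
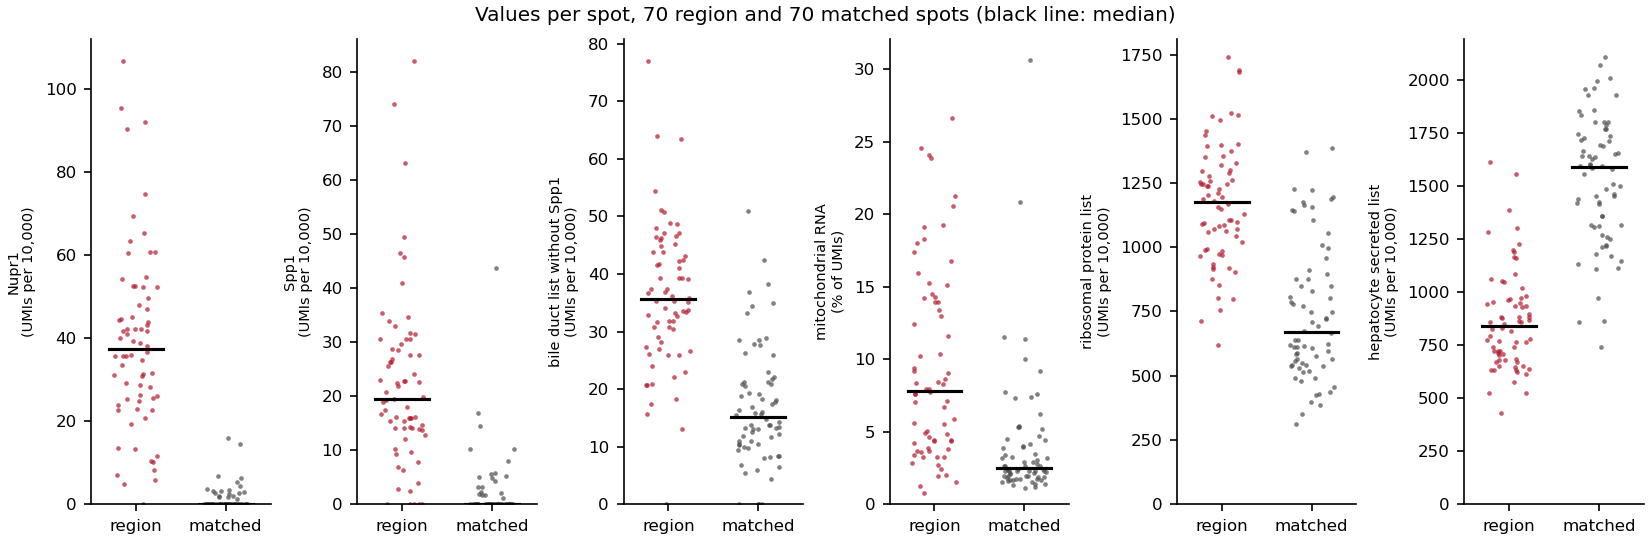
Values per spot in 70 region spots and 70 matched spots, in UMIs per 10,000 or % of UMIs, with each class's median as a black line. Nupr1 medians are 37.3 and 0, and the list of hepatocyte secreted proteins runs the other way, with medians of 842 and 1591.

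YAP and TEAD target genes were near the limit of detection. Their list holds 17 genes other than Ankrd1, and 16 of them had more UMIs in the region, beside 8116 of 13091 over all genes detected, with 173 UMIs against 63 in all, a ratio of 2.75 (2.05 to 3.72). No member reached 50 UMIs, so none entered the count of 2-fold genes. Wwc1, an upstream regulator of the pathway that is also its target, had 33 UMIs against 5. Amotl2, which binds and retains YAP, had 20 against 7, and Ccn2, a secreted matricellular protein, 20 against 6. Gadd45b had 14 against 6 (2.33-fold, 0.842 to 7.41). Ccn1, the other classical secreted target, had 9 against 5, Axl 11 against 7 and Lats2 5 against 6. Counts of Gadd45b, Ccn1, Axl and Lats2 were too small to tell the classes apart.

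Hepatocyte products were lower as a list, and still abundant. Of the 28 genes of hepatocyte secreted proteins, all reached 50 UMIs. At least 2-fold lower were 5, beside 5.94% of all 1516 genes, and none was 2-fold higher. All 28 were below 1 in ratio, with a median log2 ratio of -0.72. Per spot their sum ran between 429 and 1613 UMIs per 10000 in the region (median 842) and between 741 and 2111 in matched spots (median 1591), and 69 of 70 region spots were at or below the matched median. Albumin mRNA, a defining hepatocyte transcript, was at 3246 UMIs in the region against 5321. Apoa2 had 3576 against 5795, Apoe 3542 against 4699 and Apoc1 1762 against 3143. Hepatocyte RNA was thus present in the region's spots, at a lower share than in spots of the same depth. Which tissue under or near these spots it came from was not tested.

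Apoc2, the apolipoprotein that activates lipoprotein lipase, led the 15 lowest genes. It had 186 UMIs in the region against 705, a ratio of 0.264 (0.223 to 0.311), and between 0 and 16 per region spot against 0 and 60 per matched spot. Fabp1, the liver fatty acid binding protein, had 937 against 2319, and Apoc3, which inhibits the same lipase, 617 against 1372. Gls2, the liver glutaminase of periportal cells, had 20 against 77, Rida, an enamine deaminase, 81 against 238, and Aldh8a1, an aldehyde dehydrogenase, 11 against 42. Fcna, a ficolin of liver macrophages, had 16 against 58. Serpina1b and Serpina1d, Mup11 and Mup17, and Saa1 and Saa2 belong to families of near-identical copies between which reads may be split, so single members are uncertain. Serpina1b had 398 against 1125 UMIs and Serpina1d 133 against 321, Mup11 had 64 against 193 and Mup17 61 against 178. With the top 100 spots Fabp1, Rida, Mup11, Fcna, Apoc3, Orm1 and Serpina1d fell short of 2-fold, and the log2 ratios nearest to 0 over the alternatives were -0.89, -0.78, -0.95, -0.86, -0.82, -0.79 and -0.90 in that order.

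Periportal genes were lower and pericentral genes were nearer to the level of all genes. Of 16 periportal genes 13 reached 50 UMIs, with a median log2 ratio of -0.92, beside -0.11 over all 1516 genes. At least 2-fold lower were 5 of the 13, beside 5.94% of all 1516 genes. Among them were Cps1, the entry enzyme of the urea cycle, with 175 against 353 UMIs and Arg1, its last, with 94 against 211, whose log2 ratios came to -0.62 and -0.82 at the alternative settings nearest to 0. Of 16 pericentral genes 11 reached 50 UMIs and none passed 2-fold either way, with a median of -0.42. More UMIs in the region were found for 5 of the 16, beside 8116 of 13091 over all genes detected. Glul, glutamine synthetase of the innermost pericentral cells, had 99 against 103 and Cyp2e1 294 against 430.

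Acute phase genes were mixed. Of 14 genes 11 reached 50 UMIs and 4 were at least 2-fold lower, beside 5.94% of all 1516 genes. The median log2 ratio of the 11 was -0.84. Saa1, serum amyloid A, had 187 against 541 UMIs, Saa2 105 against 259 and Orm1, orosomucoid, 290 against 661. Lcn2, a lipocalin that binds bacterial iron carriers, went the other way with 664 against 352. Serum amyloid counts were uneven between spots: 1 matched spot held 155 of the Saa1 UMIs and 1 held 103 of those of Saa2. With spots matched on mitochondrial share as well, the log2 ratio was -0.30 for Saa1 and 0.22 for Saa2.

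Metabolic lists of hepatocytes were also lower. Of 15 fatty acid oxidation genes 14 reached 50 UMIs, with a median log2 ratio of -0.46. The 2-fold count says little, with 1 gene at least 2-fold lower, beside 5.94% of all 1516 genes. Ehhadh, the peroxisomal bifunctional enzyme, was that gene, with 90 against 193. Of 11 fatty acid synthesis genes 5 reached 50 UMIs and 2 were 2-fold lower, beside 5.94% of all 1516 genes. These were Scd1, the desaturase, with 116 against 234 and Elovl5, an elongase, with 37 against 88. Both were near the 2-fold line, with log2 ratios of -0.74 and -0.58 at the alternatives nearest to 0. None of 5 lipid droplet genes passed 2-fold, with a median of -0.62, and Plin2, the main droplet coat protein, had 367 against 475.

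Mitochondrial transcripts were higher in the region to unequal degrees. Of the 13 genes 11 reached 50 UMIs, and 7 were at least 2-fold higher, beside 4.95% of all 1516 genes. The median log2 ratio of the 11 was 1.08. mt-Cytb, of complex III, had 4038 UMIs against 1036, a ratio of 3.90 (3.64 to 4.18), mt-Co3 of complex IV 6125 against 1876, and mt-Co2 2804 against 836. Of the complex I transcripts, mt-Nd4 had 1315 against 624, mt-Nd5 226 against 108, mt-Nd3 483 against 268 and mt-Nd4l 82 against 45, while mt-Nd1 had 788 against 615 and mt-Nd2, the 1 of the 11 below 1, 525 against 747. Genes of the same complexes that are encoded in the nucleus did not go along: all 18 reached 50 UMIs, none passed 2-fold and the median was -0.21. With spots matched on mitochondrial share as well, none of 5 named transcripts was 2-fold higher, with log2 ratios of 0.99 for mt-Cytb, 0.13 for mt-Co2, 0.38 for mt-Co3, -0.15 for mt-Co1 and -0.30 for mt-Atp6.

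Ribosomal protein genes were higher nearly throughout their list, mostly by less than 2-fold. Of 96 genes 80 reached 50 UMIs and 79 of these were above 1, with a median log2 ratio of 0.59. Only 2 passed 2-fold, beside 4.95% of all 1516 genes. The list made 11.5% of UMIs in the region (11.4 to 11.6%) and 7.78% in matched spots (7.68 to 7.89%). Per spot the share ran between 6.21 and 17.4% in the region (median 11.7%) and between 3.11 and 13.9% in matched spots (median 6.69%), with 69 region spots above the matched median. The amount differed between members. Rps24 had 889 UMIs against 421 and Rps20 923 against 519, while the log2 ratios of Rpl41 and Rpl38 were 0.24 and 0.39.

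In the stress lists, no member with at least 50 UMIs other than Nupr1 was 2-fold higher. Cryab, a small heat shock protein outside these lists, had 59 UMIs against 5 (11.8-fold, 4.78 to 37.7). The list of the integrated stress response and endoplasmic reticulum chaperones had 10 of 17 genes at 50 UMIs. Of these Nupr1 alone was 2-fold higher, beside 4.95% of all 1516 genes, and none was 2-fold lower. Their median log2 ratio was -0.22. Atf4, the factor of that response, had 53 UMIs against 43, Ddit3, its proapoptotic partner, 23 against 18, and Atf5 47 against 66. Hspa5, the main chaperone of the endoplasmic reticulum, had 152 against 203. Of the immediate early and heat shock genes 3 of 17 reached 50 UMIs and none passed 2-fold, and Hspa8, the constitutive chaperone, had 503 in each class. Of the 8 hypoxia and glycolysis genes that reached 50 UMIs none passed 2-fold, with Gapdh at 658 against 749. The p53 list, with 89 against 88 UMIs, and the nuclear long noncoding RNAs, Neat1 at 170 against 149 and Malat1 at 60 against 49, were close to equal in counts.

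Tumour and cell cycle genes had few UMIs in either class. Of 18 liver tumour and fetal genes 2 reached 50 UMIs, Cd24a, at 57 against 12 as given above, and Ly6d, a surface protein of lymphoid and some tumour cells, with 155 against 306. Afp, alpha-fetoprotein, had 9 against 3 and H19 0 against 4. The cell cycle list had 109 UMIs in the region against 59, a ratio of 1.85 (1.33 to 2.58). More UMIs in the region were found for 10 of 14 genes, beside 8116 of 13091 over all genes detected. Ccnd1, cyclin D1, was the 1 member that reached 50 UMIs, with 48 against 22. It was at least 2-fold higher, beside 4.95% of all 1516 genes. It reached 50 UMIs mostly through region UMIs, so this call says little. Mki67, a marker of dividing cells, had 5 against 2. Among MYC family genes Myc had 1 UMI in the region against 4.

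Markers of other cell types were mostly rare or close to equal. Stellate and myofibroblast genes had 492 UMIs against 512, with 6 of 18 genes at 50 UMIs and none past 2-fold, among them Fn1, fibronectin, with 216 against 232, and Col3a1 with 32 against 34. Endothelial genes had 178 against 191. Kupffer cell genes had 326 against 426, with C1qb at 101 against 91. Of the 6 that reached 50 UMIs, 2 were at least 2-fold lower, beside 5.94% of all 1516 genes. These were Cd5l and Clec4f, with 24 against 55 and 23 against 52, although the log2 ratio of Cd5l was -0.68 at the alternative nearest to 0. Monocyte and lipid-associated macrophage genes had 550 against 520. Cd63, also a general lysosomal gene, was at 107 against 51 as the 1 of 7 genes past 2-fold, beside 4.95% of all 1516 genes. Gpnmb and Trem2, the defining ones, were at 8 against 10 and 8 against 7. Erythroid genes had 27 against 115 UMIs, with Hbb-bs, a beta globin with near-identical copies, at 15 against 62.

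The defining markers of unrelated tissues were at or near 0. Neutrophil genes had 13 UMIs against 25, T, NK and B cell genes 9 against 10, and the plasma cell list 66 against 58, of which Xbp1, also a hepatocyte gene, made 63 and 48. The mesothelial list had 46 against 16, of which Slpi, also an epithelial gene, made 25 and 11 and the duct keratin Krt19 20 and 3, while Msln, Upk3b, Upk1b, Wt1 and Muc16 had 0 in both classes. Pancreas acinar genes had 7 against 13, all from Cela1, with Prss2, Cpa1 and Pnlip at 0. Among keratinocyte genes, Krt5, Krt14, Krt1 and Lor were at 0 and Sprr1a had 12 against 17. Skeletal muscle genes, a list of 7 with Ckm, Myh4 and Acta1, had 0 UMIs in the region and 2 in matched spots. Which cells the Ankrd1 RNA came from was not tested. Adipocyte genes had 17 against 13, with Adipoq at 0. A count of 0 in the region's 257943 UMIs has an exact 95% upper bound of 14.3 CPM.

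Levels differed with distance from the region. Nupr1 was at 4137 CPM in the 43 inner region spots, 2504 CPM in the other 27 region spots, 866 CPM in the first ring of 30 touching spots, 537 CPM in ring 2, 346 CPM in ring 3, and 415 to 460 CPM in rings 4 to 6. Beyond ring 6 it was at 178 CPM. Spp1 was at 2353 and 1719 CPM in inner and other region spots, 722 CPM in ring 1, 434 CPM in ring 2 and 157 CPM beyond ring 6. Wfdc2 was at 387 and 285 CPM inside, 155 CPM in ring 1, 41.3 CPM in ring 2 and 16.5 CPM beyond ring 6. Each of these 3 was highest in the inner spots and lower at the first ring, but ring 1 stayed above the rest of the section.

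Hepatocyte secreted proteins ran opposite, with 81866 CPM in inner spots, 101049 CPM in the other region spots, 131876 CPM in ring 1 and 159813 CPM beyond ring 6. The duct list without Spp1 was less sharply placed. It was at 3788 and 3169 CPM inside the region, 2471 CPM in ring 1, 3170 CPM in ring 5 and 1618 CPM beyond ring 6. Depth differed along the same path, with a median of 2930 UMIs per inner spot, 3824 per other region spot, 4905 in ring 1 and 14857 in ring 6, and so did the mitochondrial share, at 12.2% and 6.69% inside, 4.83% in ring 1 and 3.18% in ring 6. What part depth and mitochondrial share have in these profiles was not tested.

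**Figure D4:**
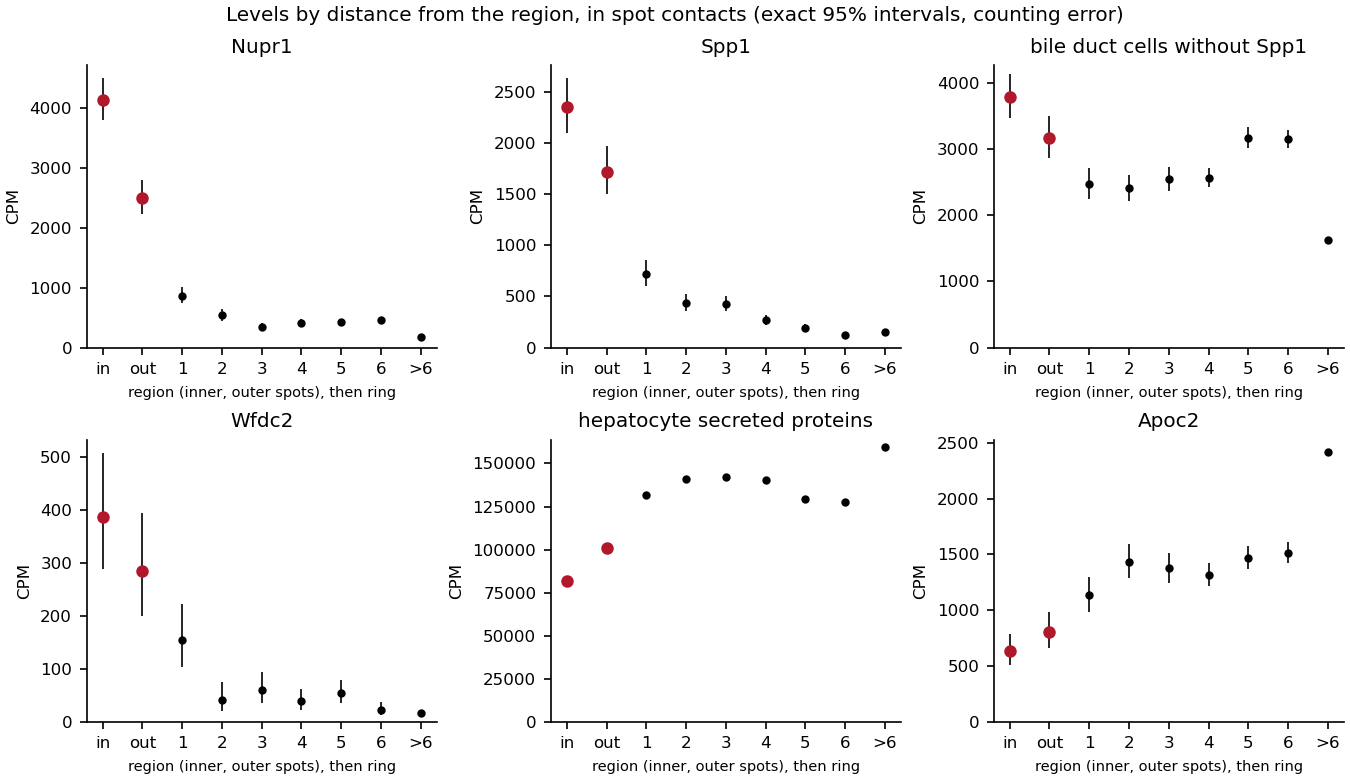
CPM by distance from the region: inner and outer region spots (red), rings 1 to 6 of spots counted in contacts, and all spots farther out, with exact 95% intervals for counting error. Nupr1, Spp1 and Wfdc2 are highest in the inner spots and lower from ring 1 outward, and hepatocyte secreted proteins and Apoc2 are lowest inside.

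Spots of the same section that are rich in duct markers or in mitochondrial RNA gave other values. The 70 spots richest in 6 duct markers (Krt7, Krt19, Epcam, Sox9, Cldn4 and Tspan8), taken away from the region and its touching spots, had a median of 4422.5 UMIs and a mitochondrial share of 2.98%. Nupr1 was at 3338 CPM in the region and 717 CPM in those spots, Spp1 at 2043 and 643 CPM, Bicc1 at 186 and 27.6 CPM, and Wfdc2 at 337 and 47.8 CPM. Over all kept spots outside the region these genes were at 195, 165, 8.20 and 18.5 CPM in that order. The duct-marker-rich spots were thus also above the section's level, by less than the region. Ankrd1, which chose the region, was at 7.4 CPM in the duct-marker-rich spots. Krt19, which chose those spots, was at 77.5 CPM in the region and 49.6 CPM in them, and Krt7 at 112 and 14.7 CPM.

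The 70 spots richest in mitochondrial RNA had a share of 12.0%, above the region's 9.52%, and a median of 14026 UMIs. In them Nupr1 was at 65.5 CPM, Spp1 at 46.1 CPM and Bicc1 at 4.10 CPM, each below the other kept spots, where the 3 genes were at 195, 165 and 8.20 CPM. Their mitochondrial transcripts were otherwise mixed: mt-Cytb was at 15655 CPM in the region and 8602 CPM in them, while mt-Nd2 was at 2035 and 11543 CPM and mt-Co1 at 20869 and 27182 CPM. Each class is 70 spots of 1 section chosen by its own level, so these values have no test.

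The same score was then applied to the 3 sections that the rule did not use, STAM16w, DEN22w and DEN30w. In each, the 70 top-scored spots were summed and set against 70 spots matched on UMI total. These spots rest on very few molecules, with 13, 14 and 16 scoring UMIs against 178 in STAM20w, and the highest scores were 0.845, 1.19 and 1.62 against 15.5. Of their contacts 57.7, 50.6 and 53.3% were with one another, against 84.8% in STAM20w. All kept spots of those sections held 34, 49 and 191 scoring UMIs, against 484 in STAM20w, and no spot there reached 4.39, the score of the last STAM20w member.

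Over the 3 sections, edgeR's quasi-likelihood test with section as a block, with Benjamini-Hochberg adjustment at 0.05, called 12 of 6267 genes higher (0.191%) and 0 lower (0%). At an unadjusted p under 0.05 there were 328 genes in either direction. DESeq2 called 0 genes in either direction, with 10 at an unadjusted p under 0.05. The 12 genes were mostly of plasma cells and matrix, and for most of them the levels were high in DEN30w: Ighm, the heavy chain of immunoglobulin M, was at 10.6, 8.40 and 758 CPM in score-ranked spots of STAM16w, DEN22w and DEN30w, against 5.28, 4.20 and 71.1 CPM in matched spots. Ighg2b was at 1495 CPM in score-ranked spots of DEN30w against 338 CPM in matched spots, and had 0 UMIs in both classes of the other 2 sections. Without DEN30w, 2 genes were called higher and 5 lower, and 1 of the 12 was among them. Without DEN22w the calls were 22 higher and 2 lower.

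Of the 15 genes highest in the STAM20w region, Bicc1, Cryab, Plet1, Anxa3 and Cd24a had too few UMIs for this fit and were not tested. Among the others, only Spp1 passed. It was at 217, 58.8 and 423 CPM in score-ranked spots of STAM16w, DEN22w and DEN30w, against 58.1, 67.2 and 204 CPM in matched spots, higher in 2 of 3 sections (log2 fold change 1.09, SE 0.19, adjusted p = 0.000502 by edgeR). Col1a2, a chain of type I collagen, was at 54.6, 60.9 and 284 CPM against 19.4, 39.9 and 77.0 CPM (log2 fold change 1.44, SE 0.22, adjusted p = 4.49e-05 by edgeR), higher in 3 of 3 sections. Col1a1 and Col3a1, 2 further fibrillar collagen genes, the protease inhibitor Slpi and the MHC class II gene H2-Ab1 were called as well. Nupr1 did not pass, with 17.6, 8.40 and 35.5 CPM in score-ranked spots against 24.7, 8.40 and 26.7 CPM (log2 fold change -0.06, SE 0.42, adjusted p = 0.999). Wfdc2 did not pass either (log2 fold change -0.42, SE 0.40, adjusted p = 0.999), and mt-Cytb was at 0.22 (SE 0.10, adjusted p = 0.945), with higher CPM in 3 of 3 sections. None of the 15 lowest genes passed.

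The background level of Nupr1 also differed between sections. Over all kept spots it was at 27.1 CPM in STAM16w, 215 CPM in STAM20w, 7.39 CPM in DEN22w and 27.4 CPM in DEN30w, and at 195 CPM in STAM20w outside the region. With 1 section per group these are values of single sections.

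**Figure D5:**
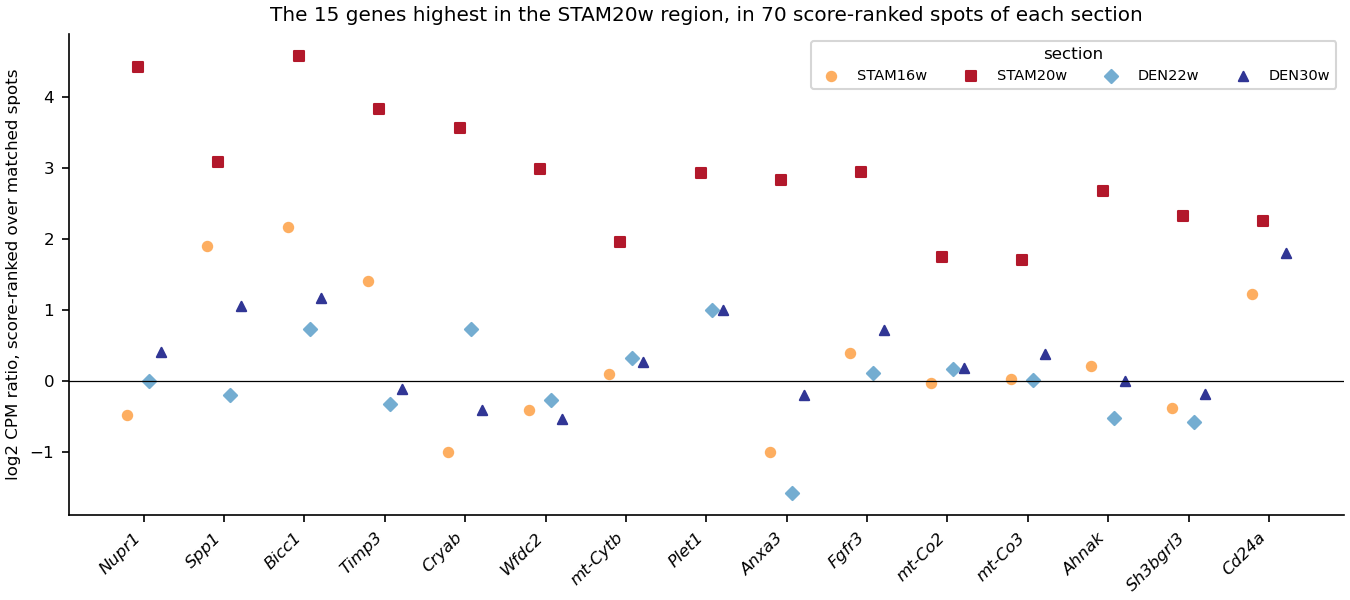
Log2 ratio of CPM in 70 score-ranked spots over 70 matched spots, for the 15 genes highest in the STAM20w region, in each of the 4 sections. STAM20w squares lie between 1.71 and 4.58, above the other sections' points for each gene drawn. A gene with 0 UMIs in either class of a section has no point.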

How the data were processed

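Spatial RNA was measured in 4 mouse liver sections, 1 per group, from frozen slices on Visium slides. The deposited files are matrices of raw UMI counts per gene and spot, with spot positions; Space Ranger 1.3.1, STAR and the mm10 build are named in the submitters' processing notes, and the annotation is not given in the sources used here. Only spots over tissue, as deposited, were used, and a doublet caller was not run, since a spot is a small area and not a cell. Spots with at least 500 UMIs and 250 genes were kept: 2080 spots with a median of 9711.5 UMIs in STAM16w, 2833 with 12761 in STAM20w, 2746 with 7302.5 in DEN22w and 2968 with 9423 in DEN30w.

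Counts of the 70 region spots and 70 spots matched 1 to 1 on log10 UMI total (largest distance 0.00677) were summed, and CPM ratios were given with exact 95% intervals, conditional on both counts, for counting error only. Named were the scoring genes, Mycn, the 15 genes highest and the 15 lowest by the interval bound nearest to 1 among genes with at least 50 UMIs, list members with the most UMIs, and, in the other sections, genes past an adjusted p of 0.05. One list member is not reported here by name. Genes that share reads with near-identical copies are uncertain. The 3 other sections were tested with edgeR 4.0.16 in R 4.3.3 on summed counts (filterByExpr, TMM, section as a block). The scoring genes were left out of that fit, and each section was 1 replicate. DESeq2 1.42.0 was an alternative. Both steps were tested on simulated data. Spots share a section, and whether sections came from separate mice is not given in the labels, so p-values speak of these sections only. edgeR shares its estimate of spread across genes, so a p-value does not measure a gene's own spread between sections. Spp1 passed with log2 ratios of 1.90, -0.19 and 1.05 in STAM16w, DEN22w and DEN30w. Ighg2b passed with UMIs in DEN30w alone. The members and gene lists were chosen with earlier results of these data known. Alternatives changed the number of top spots, the score, the matched spots, the minimum of UMIs, the scaling and the sections used.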

Additional observations from a re-analysis of the deposited data

Results flagged for a closer look

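In score-ranked over matched spots, Timp3 was above 0 on the log2 scale in both STAM sections and below 0 in both DEN sections, with a difference of 2.84 between the means of the STAM and the DEN sections that was not tested; Timp3 was named for its STAM20w ratio, and in STAM16w, DEN22w and DEN30w it had 16 against 6, 8 against 10 and 12 against 13 UMIs, with counting intervals that all include a ratio of 1. Ahnak had the same pattern of signs, with a difference of 1.71 that was not tested, and it too was named for its STAM20w ratio, with 30 against 26, 16 against 23 and 22 against 22 UMIs in STAM16w, DEN22w and DEN30w.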

How the results depend on the processing

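Each count and named gene was recomputed with 1 choice changed at a time; the last-columns and spot-share settings were added after seeing the data. Across 17 alternatives, 29 of the 30 named genes kept their direction, the exception being Saa2 at a log2 ratio of 0.22 with spots matched also on mitochondrial share, but 12 fell under 2-fold in at least 1 alternative, as given beside them; there mt-Co1 was at -0.15 and mt-Atp6 at -0.30. Genes at least 2-fold higher numbered 47 with the top 50 spots, 3405 against all other kept spots (more genes pass), 373 and 23 with minimums of 20 and 100 UMIs (more and fewer genes pass), 114 by the mean of spot shares and 45 without the last 2 array columns, against 75. Genes at least 2-fold lower numbered 55 with the top 100 spots, 775, 219 and 42, 175 by spot shares, and 54 with matching on mitochondrial share, against 90. The gene sets changed too. Of the 75 higher genes 23 to 75 recurred in an alternative, with 35 for the top 50 spots and 45 for matching on mitochondrial share. Of the 90 lower genes 23 to 90 recurred, with 23 for the top 100 spots and 28 for matching on mitochondrial share. The other causes were not tested. The mitochondrial difference of 5.79 points was 6.16 with the top 50 spots, 3.85 with the top 100, 5.63 by the spot's own score, 5.99 where no matched spot touches the region, 5.28 to 5.95 (5.95, 5.28, 5.32, 5.42 and 5.64) with 1 scoring gene left out, 5.61 without the last 2 columns, and -0.51 where matching on it removes it.

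In the 3 other sections the 12 higher calls were 0 with DESeq2, 0 without the section block (no replicate block, 42 genes at an unadjusted p under 0.05) and 3 with the top 50 spots. Leaving out 1 section gave 2 to 22 higher and 0 to 5 lower calls. Ighg2c turned to -0.46 with the top 50 spots, and Igkc ran between -0.38 (without DEN30w) and 2.34 with 1 section left out. With 13 to 16 scoring UMIs per section, the score ranks those spots weakly, and with 50 UMIs as a minimum most duct and YAP target genes in the region stay below the count.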
